A study of Homo sapiens with 6 samples.

Results

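ERBB2 and EGFR are the 2 receptors of the HER family described here, through 4 of the 47231 probes on the Illumina bead arrays of this series. The probes were chosen by ID, with earlier results of these data known. ILMN_2352131 and ILMN_1728761 were assigned to ERBB2, and ILMN_1798975 and ILMN_1696521 to EGFR. These assignments came with the choice of probes and were not checked against an annotation of the array. RNA came from SKBR3, an established line of human breast cancer cells in which ERBB2 is amplified. Per the labels, 3 arrays carried RNA from SKBR3 cells overexpressing CDCP1, with CDCP1 in their titles, and 3 carried RNA from SKBR3 control cells, with GFP in their titles. All 6 samples were grown in vitro, and their titles number them as experiments 1 to 3 in each group. The labels do not say how the cells were made to overexpress CDCP1, whether each line was a clone or a pool, or whether the experiments were separate cultures, so the p-values reflect the spread between these samples alone, and that spread may be technical.

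HER receptors are tyrosine kinases of the cell surface that pair with each other when a ligand binds. EGFR binds EGF and related ligands. ERBB2, also called HER2, has no known ligand of its own, is the preferred partner of the other HER receptors and is the target of trastuzumab. Both signal through the RAS to ERK and the PI3K to AKT pathways. CDCP1 is a glycoprotein of the plasma membrane and a substrate of SRC family kinases. GFP, a fluorescent protein, serves as a neutral control. The study asked about CDCP1 together with HER2 in tumours and in trastuzumab resistance. The comparison made here is whether the transcripts of these receptors differed when CDCP1 was raised.

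Values are log2 probe signals, which the authors had already brought to nearly the same distribution on every array, so a difference is relative to the other probes. The array medians lay close to 6.79 in all 6. No array lacked signal at the member probes: each of the 4 lay above the estimated background limit of 6.68 on all 6 arrays. CDCP1 replicate 1 stood farthest from its group over all tested probes, with an SD of 0.18 for its log2 distance from the mean of CDCP1 replicates 2 and 3. The same distance from the rest of the group had an SD of 0.126 and 0.138 for CDCP1 replicates 2 and 3, and 0.099 to 0.116 for the GFP arrays. Each member result was therefore also computed without it.

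The ERBB2 probe ILMN_2352131 was among the brightest on every array. On the CDCP1 arrays 126 to 133 of the 47231 probes were brighter, and on the GFP arrays 150 to 159 were. Its percentile among all probes was 99.72 to 99.73 on the CDCP1 arrays and 99.66 to 99.68 on the GFP arrays. Its highest value lay 0.62 below the brightest value of any probe, on the log2 scale. Brightness also depends on the sequence of a probe, so a rank describes the signal of that probe and is not a transcript abundance.

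The other ERBB2 probe, ILMN_1728761, did not share this level. It lay at the 75.7 to 77.0 percentile on the CDCP1 arrays and at the 74.9 to 77.4 percentile on the GFP arrays. The probes assigned to ERBB2 thus disagree in level, and which transcripts each of them detects was not analysed here. Of the EGFR probes, ILMN_1798975 lay at the 78.7 to 80.3 percentile on the CDCP1 arrays and at the 74.8 to 76.1 percentile on the GFP arrays. ILMN_1696521 was the dimmest of the 4, at the 67.1 to 71.6 percentile on the CDCP1 arrays and at the 66.3 to 68.8 percentile on the GFP arrays. The mean signal of ILMN_1798975 stood 1.12 above the peak of the dimmest probes at 6.62, and that of ILMN_1696521 stood 0.53 above it, on the log2 scale. Differences near that peak may be compressed if the deposited values still hold background, and this was not tested.

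**Figure D1:**
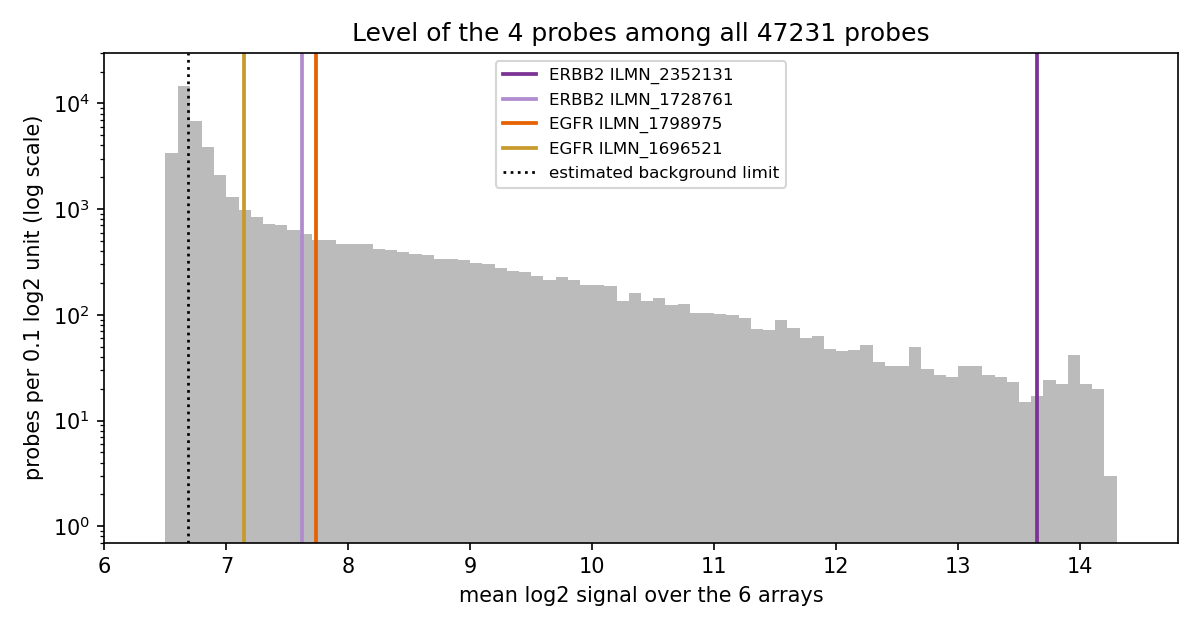
Distribution of the mean log2 signal over the 6 arrays for all 47231 probes (grey bars, number of probes per bin on a log scale), with the 4 member probes as coloured lines and the estimated background limit of 6.68 as a dotted line. ILMN_2352131 lies in the far right tail, and the other ERBB2 probe and both EGFR probes lie between 7.15 and 7.74, above the limit.

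Of the 4 probes, 1 passed the test for a difference between CDCP1 and GFP cells, and it was an EGFR probe that was higher in the CDCP1 cells. Among all 31456 tested probes, 2.62% were called higher in the CDCP1 cells and 5.26% were called in either direction (limma, Benjamini-Hochberg adjusted p under 0.05). The groups did not overlap for 2 of the 4 probes, ILMN_2352131 and ILMN_1798975, both higher in CDCP1 cells. Groups without overlap, in either direction, were seen for 22.0% of all tested probes. Over all tested probes the log2 change had a median of -0.0041. An array of whole cultures cannot tell a change in every cell from a change in the share of cells that express a transcript.

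ERBB2 was measured most brightly by ILMN_2352131. Its log2 signal was 13.70, 13.72 and 13.72 on the CDCP1 arrays, against 13.61, 13.59 and 13.55 on the GFP arrays. The groups did not overlap: the lowest CDCP1 value lay 0.093 above the highest GFP value. The means were 13.71 ± 0.0098 in CDCP1 cells and 13.58 ± 0.032 in GFP cells (SD, n = 3 each). The log2 change was 0.13 (SE 0.059, 95% interval 0.0019 to 0.26), or 1.09-fold with an upper bound of 1.20-fold. It did not pass the test (limma adjusted p = 0.283, unadjusted p = 0.0473). Its change was larger in size than that of 75.1% of the tested probes. Whether signals this near the brightest values are compressed was not tested, so the fold and its bound describe the signal of this probe.

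This probe varied less between arrays than the fit assumes. Its own within-group SD was 0.0238, and limma, which draws the variance of each probe toward a value shared by all probes, used 0.0717. With that SE a log2 change of 0.226 would have been needed for a call, so a change of the measured size could not be called here. The exact two-sided permutation test over the 6 arrays gave p = 0.10, the smallest that 3 arrays against 3 allow. The fit without CDCP1 replicate 1 gave a log2 change of 0.14 (limma adjusted p = 0.272).

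The dimmer ERBB2 probe, ILMN_1728761, showed no such separation. It read 7.68, 7.62 and 7.58 on the CDCP1 arrays and 7.62, 7.52 and 7.72 on the GFP arrays. The groups overlapped, with GFP replicate 3 as the highest and GFP replicate 2 as the lowest of the 6. Its means were 7.62 ± 0.053 in CDCP1 cells and 7.62 ± 0.099 in GFP cells (SD, n = 3 each). Its log2 change of 0.0068 (SE 0.069) had a 95% interval of -0.15 to 0.16 and did not pass the test (limma adjusted p = 0.982). The interval spans 0.904-fold to 1.12-fold. For this probe a log2 change of 0.268 would have been needed for a call, so a smaller change of either sign could not be called here.

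The change of ILMN_2352131 was 0.12 larger than that of ILMN_1728761 on the log2 scale. The exact two-sided permutation test of this difference gave p = 0.20, but it cannot go below 0.10 with 3 arrays against 3 and so does not settle whether the probes differ in change. Averaged over both probes on each array, ERBB2 had a log2 change of 0.069 (SE 0.06, 95% interval -0.062 to 0.20, limma adjusted p = 0.667). The average read 10.69, 10.67 and 10.65 on the CDCP1 arrays and 10.61, 10.56 and 10.63 on the GFP arrays. Its groups did not overlap, with a gap of 0.016. Both probes weigh the same in this average although they differ in level. No change of ERBB2 passed the test by either probe or by their average.

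EGFR was higher in the CDCP1 cells by 1 of its probes. ILMN_1798975 read 7.98, 7.97 and 7.83 on the CDCP1 arrays, against 7.51, 7.60 and 7.52 on the GFP arrays. The groups did not overlap, and the lowest CDCP1 value, that of replicate 3, lay 0.23 above the highest GFP value, that of replicate 2. The means were 7.93 ± 0.083 in CDCP1 cells and 7.54 ± 0.053 in GFP cells (SD, n = 3 each).

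ILMN_1798975 was 1.31-fold higher in the CDCP1 cells, with a 95% interval of 1.18 to 1.45-fold. On the log2 scale the change was 0.38 (SE 0.067), with an interval of 0.24 to 0.53 and a limma adjusted p of 0.00807. In size it exceeded the change of 97.4% of the tested probes. Among the 824 probes called higher in the CDCP1 cells, 390 had a larger change. The fold is exact only if the deposited scale is log2, and it is given on values that may still hold background. After a background correction (normexp with an offset of 50), the fold was 1.39 (log2 change 0.48, limma adjusted p = 0.0104). The correction ran on values that were already normalized and added the offset to every signal. The fold of 1.39 is therefore not free of added signal.

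The call did not rest on CDCP1 replicate 1, without which the log2 change of ILMN_1798975 was 0.36 (limma adjusted p = 0.00899). It was lost when GFP replicate 3 was left out, with a log2 change of 0.37 and a limma adjusted p of 0.0519. The call was kept narrowly without CDCP1 replicate 2 (limma adjusted p = 0.0441) and without GFP replicate 1 (limma adjusted p = 0.0443). Without CDCP1 replicate 3 and without GFP replicate 2 the limma adjusted p of ILMN_1798975 was 0.00556 and 0.0279. Over the settings that kept all 6 arrays, the limma adjusted p of this probe ran from 0.00237 to 0.0233. The exact two-sided permutation test gave p = 0.10, the smallest it can give.

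**Figure D2:**
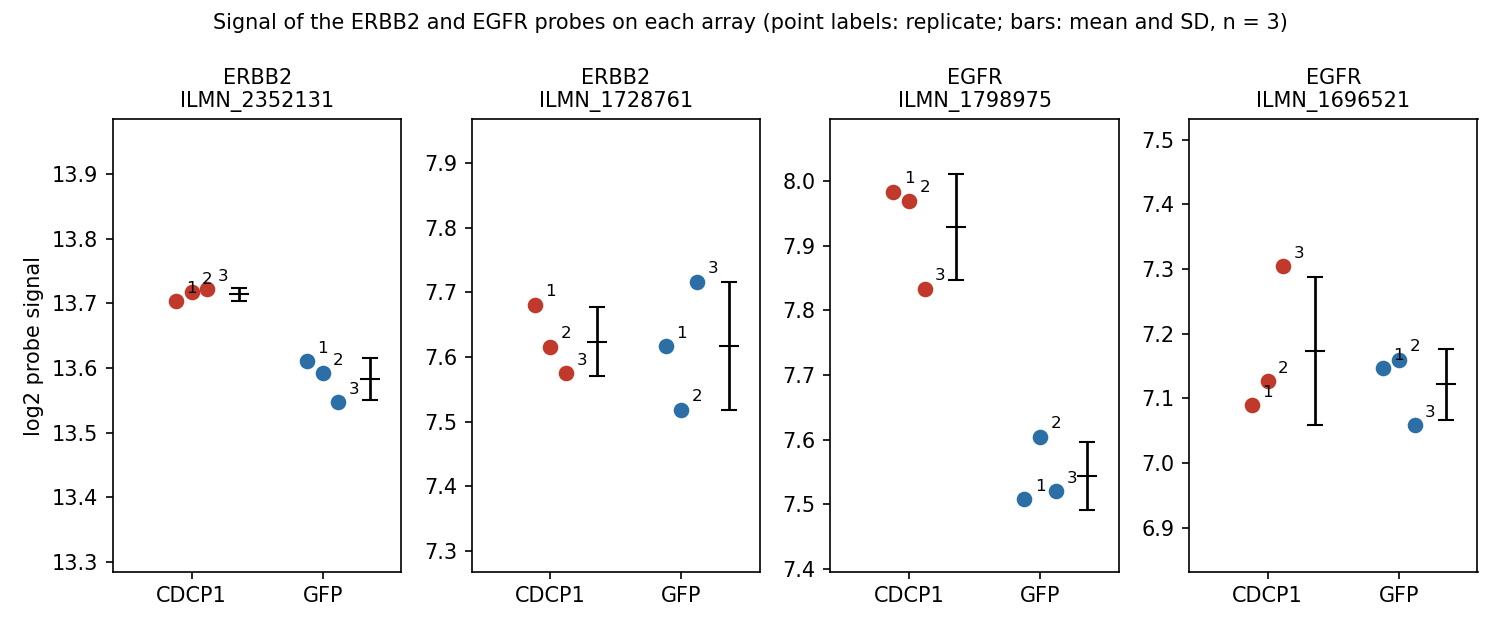
log2 signal of each probe on the 3 CDCP1 arrays (red, left) and the 3 GFP arrays (blue, right) of each panel, with the replicate number beside each point and the mean and SD (n = 3) as bars. The vertical axes differ in position and cover the same span. The CDCP1 values lie above all GFP values for ILMN_2352131 and ILMN_1798975, and the groups overlap for ILMN_1728761 and ILMN_1696521.

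The other EGFR probe, ILMN_1696521, did not pass the test. It read 7.09, 7.13 and 7.30 on the CDCP1 arrays and 7.15, 7.16 and 7.06 on the GFP arrays. The groups overlapped: only CDCP1 replicate 3 lay above all GFP values, while CDCP1 replicates 1 and 2 lay within the GFP range. Its means were 7.17 ± 0.11 in CDCP1 cells and 7.12 ± 0.055 in GFP cells (SD, n = 3 each). The change was 1.04-fold with a 95% interval of 0.928 to 1.16-fold, or 0.051 on the log2 scale (SE 0.072, limma adjusted p = 0.823).

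EGFR thus passed the test by 1 of its probes and not by the other. The log2 change of ILMN_1798975 was 0.33 larger than that of ILMN_1696521, and the within-array difference of the probes separated the groups. The exact permutation test of this difference gave p = 0.10, the smallest that this test can give with 3 arrays against 3, so it could not decide whether the probes differ in change. CDCP1 replicate 3 was the lowest of its group for ILMN_1798975 and the highest of its group for ILMN_1696521. The part that the lower signal of ILMN_1696521 plays in its smaller change was not tested.

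Averaged over both probes, EGFR read 7.54, 7.55 and 7.57 on the CDCP1 arrays and 7.33, 7.38 and 7.29 on the GFP arrays. The groups did not overlap. The log2 change of the average was 0.22 (SE 0.06, 95% interval 0.086 to 0.35), or 1.16-fold, and it did not pass the test (limma adjusted p = 0.0636). It passed in 2 of the 10 other limma settings that kept all 6 arrays. These were array weights in the fit (limma adjusted p = 0.0303) and no filter on dim probes (limma adjusted p = 0.043). Over the 10 settings its limma adjusted p reached 0.144. It passed in 0 of the 6 fits with 1 array left out (limma adjusted p 0.0576 to 0.249).

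**Figure D3:**
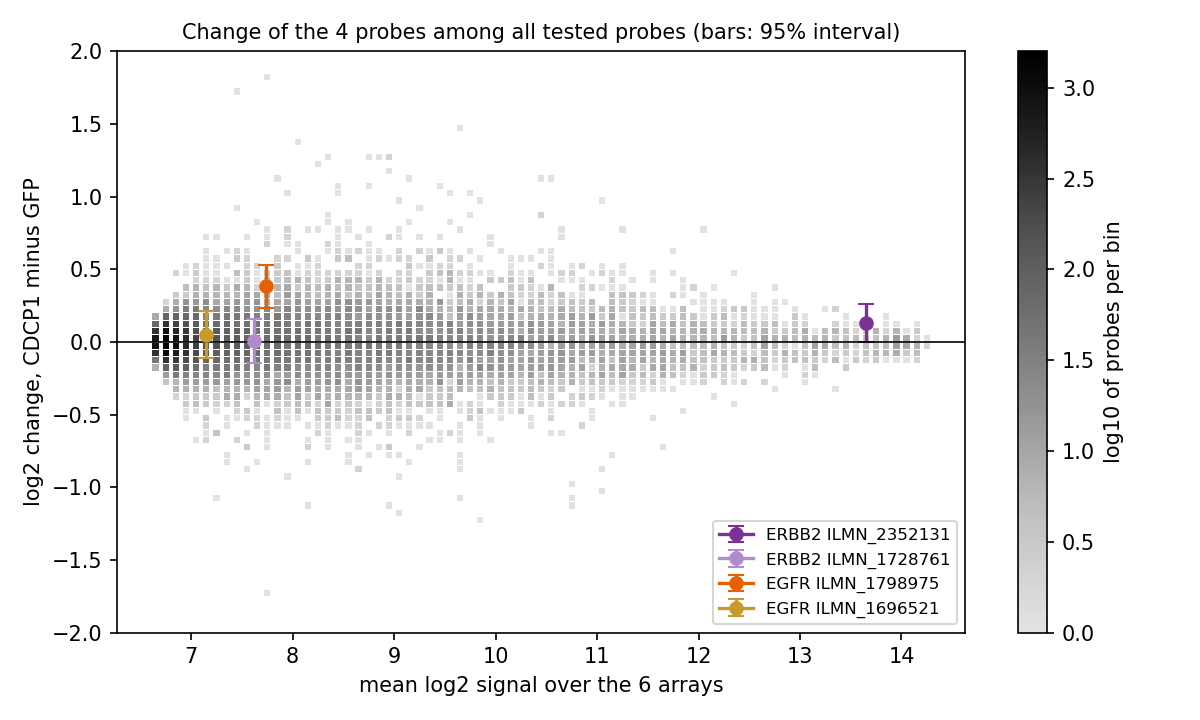
log2 change, CDCP1 minus GFP, against the mean log2 signal over the 6 arrays. Grey squares give the number of tested probes per bin on a log10 scale, and the coloured points are the 4 member probes with their 95% intervals. The interval of ILMN_1798975 runs from 0.24 to 0.53, while ILMN_2352131 lies at 0.13, far to the right of the other 3.

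**Figure D4:**
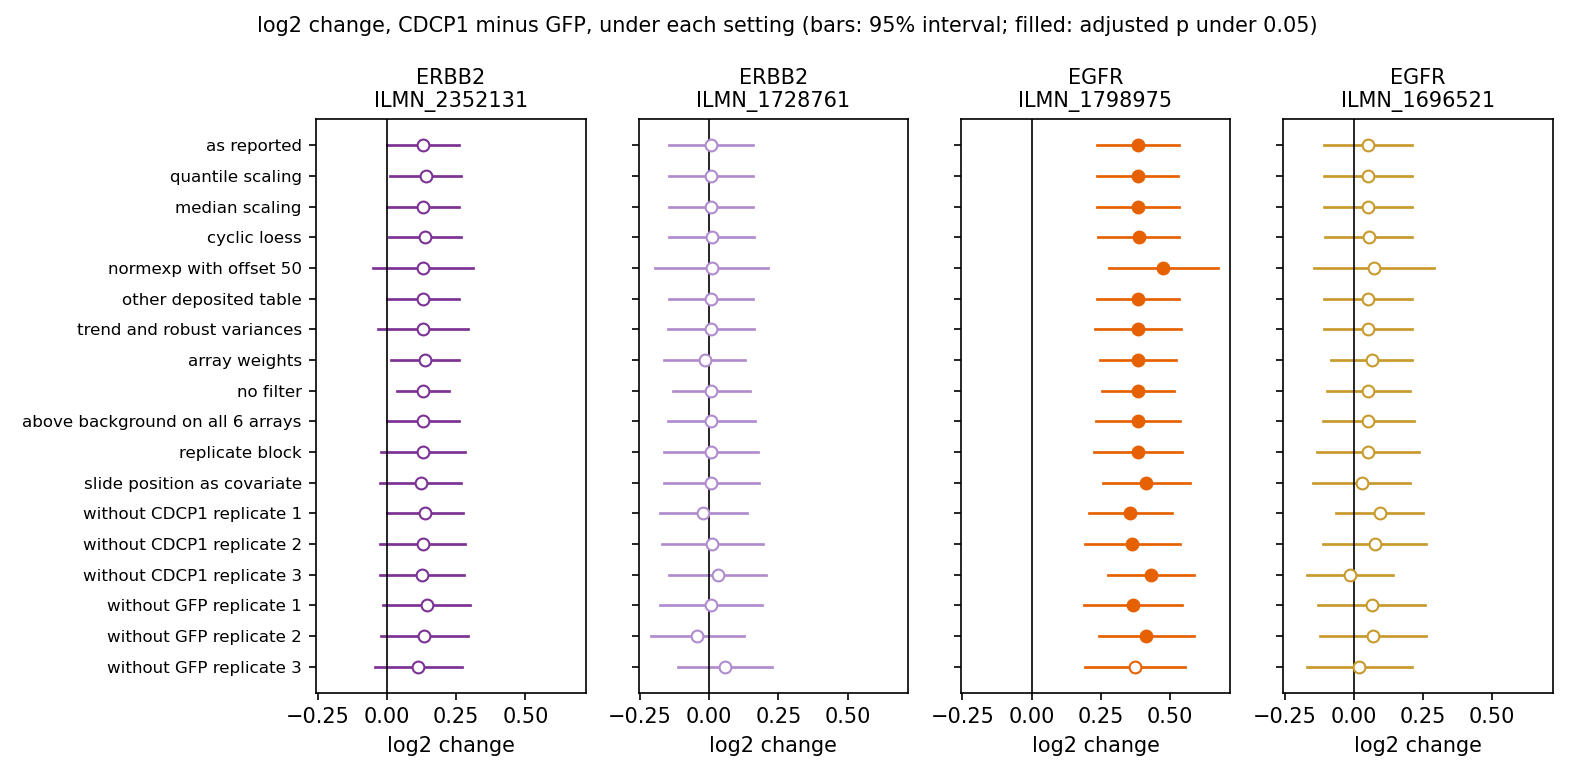
log2 change, CDCP1 minus GFP, of each member probe under each setting of the fit, with 95% intervals. Filled points mark an adjusted p under 0.05. ILMN_1798975 is filled in every row except the last, which leaves out GFP replicate 3. The other 3 probes are filled in no row.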

How the data were processed

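The deposited values are log2 signals per probe, which the authors read with GenomeStudio per the submitters' processing notes; they run from 6.45 to 14.35. The normalization method and tool are not stated in the sources, and the log base was inferred from the range. The values of the second deposited table were identical (0 probes differed). A background limit of 6.68 was set at the mode of all values (6.62) plus 1.645 background SDs (0.0408 each, from the values below the mode). A probe was tested if it exceeded this limit on 3 or more arrays (31456 probes). The contrast CDCP1 minus GFP came from limma 3.58.1 under R 4.3.3 (lmFit, eBayes), two-sided, with Benjamini-Hochberg adjustment over those probes. The fit was also run on simulated arrays with known changes, drawn as independent normal values with the SDs that the fit had estimated. That run checks the code and cannot show whether these arrays meet the assumptions of the fit. Beside the probes, the mean of the 2 probes of each gene was fitted per array in the same table.

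The members, the lists and the background limit were chosen with earlier results of these data known. All 4 member probes are named. No table used here pairs probes with genes, so the planned gene lists, cell type markers, other HER receptors, CDCP1 and probes most like the members were not analysed here, and the overexpression was not checked. Same-numbered arrays deviated from their group means with correlations across probes of -0.27, -0.30 and 0.16. No pairing was assumed, but with so few arrays these correlations cannot decide whether same-numbered arrays share an experiment. Precision is limited by the number of arrays, with a median SE of 0.0706 for log2 changes. Alternatives were other scalings, normexp, another variance model, array weights, other filters, the replicate block, the slide position and each array left out. The slide position was inferred from the letter that ends each sample name, taken as a number in alphabetical order. The labels do not say what these letters mark.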

Additional observations from a re-analysis of the deposited data

How the results depend on the processing

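In all 10 other limma settings with 6 arrays, ILMN_1798975 stayed past the threshold (log2 change 0.38 to 0.48), and ILMN_2352131 (0.12 to 0.14), ILMN_1728761, ILMN_1696521 and the ERBB2 average were not called. Quantile or median scaling tests little, since the arrays were already normalized, and the other deposited table, not counted among the 10, holds identical values and tests nothing. Array weights turned ILMN_1728761 to -0.017 and brought the EGFR average past the threshold (log2 change 0.23), as did no filter (0.22). Leaving out 1 array gave ILMN_1798975 0.36 to 0.43, with its call lost only without GFP replicate 3 (0.37). It gave ILMN_1728761 -0.043 to 0.057, negative without CDCP1 replicate 1 (-0.022) and without GFP replicate 2 (-0.043). It gave ILMN_1696521 -0.014 to 0.093, negative without CDCP1 replicate 3 (-0.014). The exact permutation test leaves ILMN_1798975 at 0.38 with no call, since 3 arrays against 3 cannot reach 0.05. The count of called probes was 1656, and it was 2613 with array weights, 1085 with the replicate block, 556 at an adjusted p under 0.01 and 613 to 2132 with 1 array left out. Causes were not tested, except that a stricter limit admits fewer probes. With the replicate block ILMN_1798975 kept its call (log2 change 0.38, limma adjusted p = 0.0233), and the block changed no member's call.

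Among probes above background the mean percentiles were 99.54 for ILMN_2352131, 63.6 for ILMN_1728761, 65.5 for ILMN_1798975 and 51.6 for ILMN_1696521, lower because dim probes drop out. Single arrays farther than 1 SD from the mean percentile were, for ILMN_2352131, CDCP1 replicate 2 (99.73) and GFP replicates 2 and 3 (99.66 in both). For ILMN_1728761 they were GFP replicates 2 and 3 (74.9 and 77.4). For ILMN_1798975 they were CDCP1 replicates 1 and 2 (80.3 and 80.1) and GFP replicates 1 and 3 (74.8 and 74.9). For ILMN_1696521 they were CDCP1 replicate 3 (71.6) and GFP replicate 3 (66.3). The gene lists were not run.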
